A study of Mus with 48 samples.

Results

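The 4 cerebellum libraries of the saline mice were compared with the 12 saline libraries of the cortex, substantia nigra (SN) and striatum, 16 of the 48 RNA-seq libraries of the series. The libraries were taken by their region and treatment, and each cerebellum was set against the mean of the 3 other regions of the same mouse (S1 to S4), since all 4 regions were dissected from each brain. All mice were female C57BL/6J, aged 8 weeks at purchase. The saline group received neither MPTP nor treadmill exercise. The MPTP group received 10 doses of 25 mg/kg of MPTP, a toxin of dopaminergic neurons, together with probenecid, and the MPTP + EX group then ran on a treadmill for 12 weeks. Each of these groups also had 4 mice with the same 4 regions, and these 32 libraries were used only to repeat the contrast. Whether the saline mice also received probenecid is not stated in the sources used here. The tissue was dissected by hand and was not sorted, so a library holds every cell type of its region and any neighbouring tissue taken with it.

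The cerebellar cortex is built from few neuron types. Granule cells, the most numerous neurons of the brain, send parallel fibres to the dendrites of Purkinje cells, and Purkinje cells carry the only output of the cerebellar cortex through inhibitory synapses. Molecular layer interneurons, Golgi cells and unipolar brush cells modulate this circuit, and Bergmann glia are the astrocytes that wrap the Purkinje cell synapses. The cerebellum develops from the hindbrain under transcription factors of the Zic, En and Pax families. The cortex and striatum develop from the forebrain under Emx, Dlx and related factors, and the SN lies in the midbrain and holds the dopaminergic neurons that project to the striatum.

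Values were FPKM, the number of fragments of a gene divided by its length and by the total mapped in the library, so that levels of different genes can be compared. A log2 difference is the mean over 4 mice of log2(FPKM + 1) in the cerebellum minus the mean of the 3 other regions. The added 1 makes it smaller than the true change for genes at low levels. A gene was called at a Benjamini-Hochberg adjusted p under 0.05 in the limma test over 13419 genes with a mean FPKM above 1. Because these are pieces of tissue, fewer cells of a type and less RNA per cell cannot be told apart.

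The labelled tissue held its defining markers in all 4 cerebellum libraries. Pcp2, a modulator of G protein signalling found in Purkinje cells, stood at 1178, 998, 883 and 1077 FPKM in mice S1 to S4, and Gabra6, the α6 subunit of the granule cell GABA-A receptor, at 238, 176, 190.2 and 181 FPKM. Some libraries also held markers of another region. In the cerebellum of mouse S2 the forebrain regulator Emx1 was at 5.65 FPKM, and it was listed at 0 in the other 3 cerebella. The summed level of the 23 neocortical neuron markers was 656 FPKM in the cerebellum of S2, 209 to 292 FPKM in the other cerebella, and 3452 to 3963 FPKM in the cortex. Conversely, the SN libraries held Pcp2 at 34.6, 20.9 and 28.4 FPKM in mice S2 to S4 and at 1.36 FPKM in S1. Tbr1, a regulator of cortical projection neurons, was at 1.99 FPKM in the striatum of S4 and at 12.9, 17.8 and 16.03 FPKM in that of S1 to S3. The part of these markers in the differences below was not tested. Several differences are also given without mouse S2 or against the cortex and striatum alone.

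The cerebellum differed from the other regions in most of the genes tested. Of 13419 genes, 4870 were higher in it (36.3%) and 4327 lower (32.2%), 68.5% in either direction. The median difference over all genes was 0.03. In 2380 genes (17.7%) all 4 cerebellum libraries lay above the 12 others, and in 1629 (12.1%) all 4 lay below them. Against single regions, the cerebellum was higher in 40.2% of genes and lower in 27.7% compared with the cortex, higher in 28% and lower in 33.6% compared with the SN, and higher in 36.2% and lower in 28.3% compared with the striatum. The balance depended on scaling and on the filter. Against the mean of the 3 regions, 4088 genes were higher and 5113 lower at a common median. With no FPKM filter the counts were 5108 and 5303. At a common median 4064 genes were higher and 4622 lower than in the cortex, and 4076 and 4392 for the striatum. Under quantile normalization the counts were 4677 and 4022 for the cortex and 4536 and 3905 for the striatum. A difference from the mean of 3 regions did not always hold against each one. In 2568 genes (19.1%) the cerebellum was higher than each of the 3 regions, and in 2001 (14.9%) it was lower than each, which left 47.3% of the higher calls and 53.8% of the lower calls without a call of that sign in all 3 regions.

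Differences of 3 or more on the log2 scale were called upward more often than downward. A log2 difference of at least 1 was called upward in 697 genes and downward in 882, one of at least 3 in 64 and 33, and one of at least 4 in 24 and 4. The contrast itself treats the directions unequally. A gene held by only 1 of the 3 other regions is averaged with the rest, which shrinks its downward difference. Lrrc10b, for example, differed by -6.57 from the striatum and by -3.29 from the mean of the 3 regions. Among the 2568 genes higher than each region, the SN had the nearest mean in 1086 (42.3%), the striatum in 819 and the cortex in 663. Among the 2001 genes lower than each region, the cortex was nearest in 744, the SN in 677 and the striatum in 580.

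**Figure D1:**
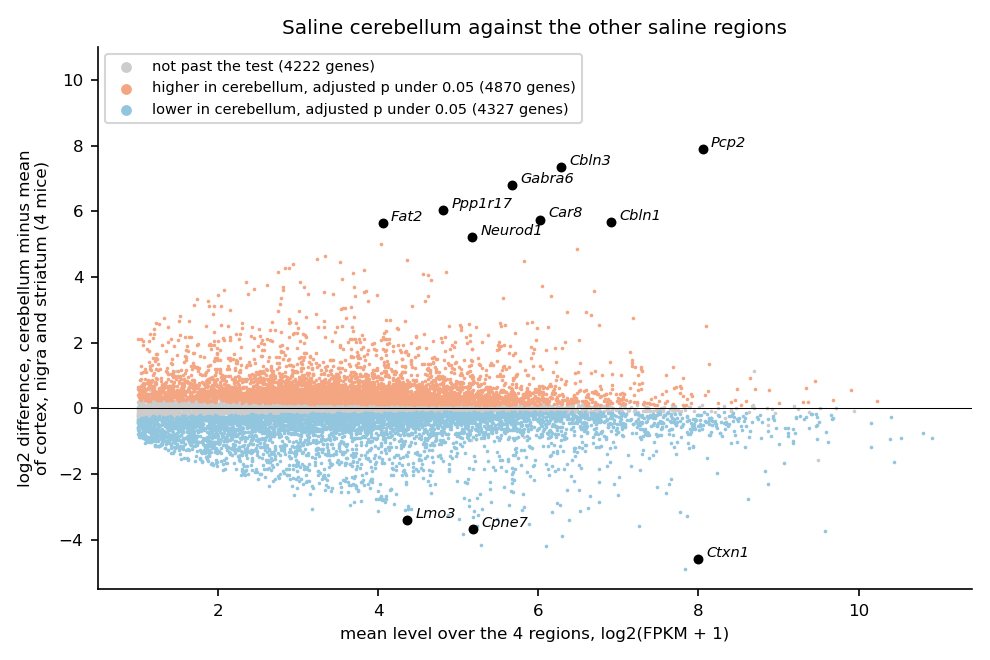
Each point is 1 of the 13419 genes. The x axis gives its mean log2(FPKM + 1) over the 4 regions and the y axis the log2 difference of the saline cerebellum from the mean of the 3 other regions (mean of 4 mice), with calls in orange (4870 higher) and blue (4327 lower). The labelled genes reach 7.90 for Pcp2 upward and -4.59 for Ctxn1 downward. The sloping edges at low levels follow from the FPKM filter and the added 1.

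The 12 largest upward differences among genes that passed in all 3 regions without overlap were those of Pcp2, Cbln3, Gabra6, Ppp1r17, Car8, Cbln1, Fat2, Neurod1, Arhgef33, Zic1, Hes3 and Barhl2. Pcp2 led with a difference of 7.902 (SE 0.31, adjusted p = 2.25e-06). Its lowest, median and highest values in the 12 other libraries were 0.37, 1.18 and 34.6 FPKM, so that the lowest cerebellum library was far above the highest of them. Against the SN the difference was 6.08, against the cortex 8.59 and against the striatum 9.04. Cbln3, a secreted partner of Cbln1, was at 324, 287, 296 and 310.3 FPKM in the 4 cerebella and at 0.158, 0.33 and 8.09 FPKM (lowest, median, highest) elsewhere, a difference of 7.35 (SE 0.19, adjusted p = 4.78e-07). Gabra6 stood at 0, 0.147 and 6.25 FPKM in the others and differed by 6.79 (SE 0.25, adjusted p = 1.58e-06). Both were granule cell genes with a narrow range among the 4 cerebella and values near 0 in most other libraries.

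Ppp1r17, a phosphatase inhibitor of Purkinje cells, was at 126, 94.8, 93.6 and 108 FPKM in the cerebellum and at 0.0474 to 4.24 FPKM in the other libraries, a difference of 6.04 (SE 0.16, adjusted p = 5.21e-07). Car8, a carbonic anhydrase relative that binds the inositol trisphosphate receptor, was at 292, 218, 219.7 and 247 FPKM against 1.43 to 10.7 FPKM and differed by 5.75 (SE 0.13, adjusted p = 3.33e-07). Cbln1, which granule cells secrete to hold parallel fibre synapses together, was at 483, 428, 429.8 and 453 FPKM, and its 12 other values ran from 2.55 to 28.3 FPKM, a difference of 5.68 (SE 0.098, adjusted p = 2.22e-07). In all 3 genes the SN had the highest mean among the other regions. The remaining 6 of the 12, from the cadherin Fat2 at 5.66 to the homeodomain factor Barhl2 at 4.54, all had 12 other values below their lowest cerebellum value. Among them, Neurod1, a basic helix-loop-helix factor of granule cells, was lowest in mouse S2, with 137, 113, 138 and 135 FPKM, and Zic1, a zinc finger factor, was even across mice at 332, 321, 305 and 323 FPKM. Hes3 is a transcriptional repressor, at 30.97 to 37.4 FPKM in the cerebellum and 0.0497 to 1.19 FPKM elsewhere. Arhgef33, an exchange factor for small GTPases, stood at 54.2 to 66.2 against 0.232 to 2.37 FPKM.

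**Figure D2:**
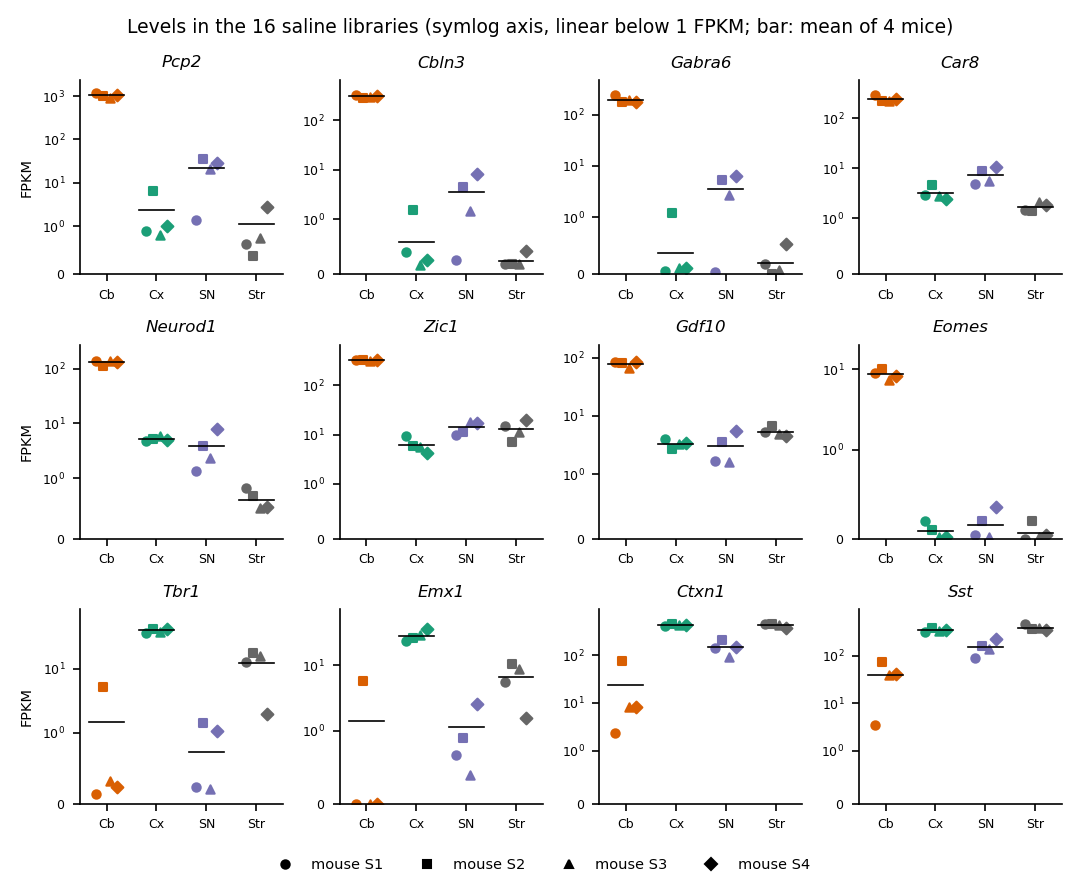
FPKM of 12 genes in each of the 16 saline libraries (Cb cerebellum, Cx cortex, SN, Str striatum), on a symlog axis that is linear below 1 FPKM, with a marker shape for each mouse and a bar at the mean of 4 mice. The upper genes separate the cerebellum from all other libraries, with Pcp2 at 883 to 1178 FPKM. In the lower row the square of mouse S2 lies above the other 3 cerebella for Tbr1, Emx1, Ctxn1 and Sst.

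The 12 largest downward differences under the same rule were those of Ctxn1, Cpne7, Lmo3, Tac1, Lrrc10b, Sst, Mal2, Rgs4, Basp1, Ptpn5, Syt5 and D430019H16Rik. Ctxn1, a small membrane protein named cortexin, was at 2.32, 76.4, 8.19 and 8.35 FPKM in mice S1 to S4 and at 90.97, 409.8 and 454 FPKM (lowest, median, highest) in the others. The value of S2 was the highest of the 4 and still below every other region, and the difference was -4.59 (SE 0.59, adjusted p = 0.000409), or -5.39 without S2. Cpne7, a calcium-dependent phospholipid-binding protein, was at 0.171, 13.3, 0.951 and 0.536 FPKM and at 14.8, 22.9 and 141 FPKM elsewhere, highest in the SN. It differed by -3.69 (SE 0.55, adjusted p = 0.000854), by -4.49 without S2 and by -3.03 against the cortex and striatum alone. Lmo3, a LIM-domain cofactor of transcription, ranged over 0.395 to 2.91 FPKM in the cerebellum and 12.3 to 38.4 FPKM outside it, a difference of -3.39 (SE 0.22, adjusted p = 1.74e-05).

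Tac1, the precursor of substance P, was at 0.366, 1.499, 5.39 and 4.296 FPKM, and its striatal mean was 139 ± 16.5 FPKM (SD, n = 4 mice) against 13.7 ± 4.98 in the cortex and 18.6 ± 4.59 in the SN. It differed by -3.36 (SE 0.38, adjusted p = 0.000227). Sst, the peptide somatostatin of inhibitory interneurons, was at 3.49, 74.0, 39.3 and 40.7 FPKM, with the lowest value in S1 and the highest in S2, and at 89.7 to 468 FPKM in the 12 others, a difference of -3.29 (SE 0.56, adjusted p = 0.00156), or -3.75 without S2. The differences of Sst in mice S1 to S4 were -5.73, -1.89, -2.69 and -2.83, so that the value without S2 leans on S1. Lrrc10b ranged in the other regions from 0.981 to 157 FPKM, and its 4 cerebellum values reached 0.894 FPKM at most. Rgs4, which shortens G protein signals, was at 3.53 to 14.1 FPKM in the cerebellum and 23.1 ± 4.97 FPKM in the SN, the nearest region. Ptpn5, the striatum-enriched tyrosine phosphatase STEP, stood at 5.67 to 19.4 FPKM against 69.4 to 207 FPKM elsewhere. Basp1, a protein of growth cones and nerve endings, ranged over 7.34 to 78.2 FPKM among the 4 cerebella, a wide spread with S2 at the top, and differed by -3.14, or by -3.56 without S2. Its differences in mice S1 to S4 were -4.96, -1.87, -2.96 and -2.77, so that S1 stood far out at the other end. Syt5, a vesicle calcium sensor, and Mal2, a membrane proteolipid, differed by -3.102 and -3.24. D430019H16Rik, an unnamed transcript, differed by -3.09.

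Purkinje cell markers were higher as a list. Of 26 genes, 25 were higher and 1 lower, beside 36.3% and 32.2% of all genes. In 24 the level was higher than in each of the 3 regions, beside 19.1% of all genes. The median difference was 2.67 against 0.03 over all genes. Besides the leading genes, Homer3, a postsynaptic scaffold, was at 216, 189.8, 169 and 212 FPKM against 4.96 to 18.6 FPKM and differed by 4.49 (SE 0.070, adjusted p = 2.22e-07). The glutamate transporter Slc1a6 (EAAT4) was at 92.5, 75.1, 77.7 and 84.99 FPKM against 1.98 to 9.31 FPKM, a difference of 3.92 (SE 0.065, adjusted p = 2.22e-07). Both were highest outside the cerebellum in the SN. Skor2, a transcriptional corepressor, was at 10.3, 9.12, 8.22 and 9.49 FPKM, while the highest of the 12 other libraries had 0.152 FPKM and all 4 striatum libraries were listed at 0. Its log2 difference of 3.32 depends on the added 1.

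Several Purkinje genes were also present at moderate levels elsewhere. Calb1, the calcium buffer calbindin, had a mean of 272 ± 38.3 FPKM in the cerebellum and 55.1 ± 8.55 in the striatum, a difference of 2.94 (SE 0.13, adjusted p = 4.04e-06). Itpr1, the inositol trisphosphate receptor of Purkinje cells, had 371 ± 45.8 FPKM against 104 ± 5.47 in the striatum and 17.9 ± 3.61 in the SN, and its difference of 2.75 was 1.97 against the cortex and striatum alone. Pvalb, parvalbumin, had 686 ± 68.9 FPKM against 217 ± 33.6 in the SN. The nuclear receptor Rora differed by 2.11 and the potassium channel subunit Kcng4 by 3.12. The 2 genes that did not pass upward against each region were highest in the striatum. Pcp4, a calmodulin regulator, was called higher at 0.63 but had a mean of 1155 ± 111 FPKM in the striatum against 770.4 ± 63.1 in the cerebellum, a difference of -0.58 (adjusted p = 0.000251) between those regions. Foxp2, a forkhead factor, was the gene that was lower, with a difference of -0.91 (SE 0.11, adjusted p = 0.000245), with 1.75 ± 0.513 FPKM in the cerebellum, 1.66 ± 0.315 in the cortex and 7.86 ± 0.636 in the striatum.

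Granule cell markers were higher as well. Of 26 genes, 25 were higher and 1 lower, beside 36.3% and 32.2% of all genes. Upward against each region 24 passed, beside 19.1% of all genes, and the median difference was 3.38. En2, a homeodomain factor of the midbrain and hindbrain, was at 72.01, 63.9, 64.8 and 70.8 FPKM and at 0.453, 0.846 and 9.91 FPKM (lowest, median, highest) elsewhere, with 8.97 ± 0.963 FPKM in the SN and 0.53 ± 0.114 in the cortex. The difference was 4.51 (SE 0.060, adjusted p = 2.22e-07), or 5.37 against the cortex and striatum alone. Zic2 was at 90.7 to 104 against 2.69 to 9.57 FPKM, a difference of 4.16 (SE 0.091, adjusted p = 3.25e-07). Chn2, which inactivates the GTPase Rac, differed by 3.72, Mab21l1 by 3.68, the cadherin Cdh15 by 3.62 and the eye and granule cell regulator Pax6 by 3.06. Calb2, the calcium buffer calretinin, was at 195, 155, 183 and 167 FPKM in the cerebellum and 95.3 ± 19.003 FPKM in the SN, but under 10 FPKM in the cortex and striatum, at 5.78 ± 0.781 and 6.11 ± 1.03. Its difference was 3.41 against 3 regions and 4.67 without the SN.

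Slc17a7 (VGLUT1), the vesicular glutamate transporter of granule cells and of cortical neurons, was called higher by 0.52 (SE 0.037, adjusted p = 2.63e-05), although the cortex held far more of it. Its means were 236 ± 50.1 FPKM in the cerebellum, 639.8 ± 61.9 in the cortex, 180.4 ± 87.3 in the striatum and 54.96 ± 42.4 in the SN. Against the cortex and striatum alone the sign turned, to -0.43. Svop, a transporter-like vesicle protein, was the granule cell gene that was lower, with a difference of -0.36 (SE 0.047, adjusted p = 0.000414), at 51.4 ± 3.51 FPKM against 84.7 ± 5.74 in the cortex.

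Bergmann glia and cerebellar interneurons followed. Of 6 Bergmann glia genes, 5 were higher, all against each region and without overlap, with a list median of 2.05. Over all genes 36.3% were higher, 19.1% higher than each region and 17.7% higher without overlap. Gdf10, a BMP family ligand, was at 83.6, 81.3, 66.8 and 83.5 FPKM and at 1.63, 3.78 and 6.68 FPKM elsewhere, a difference of 4.08 (SE 0.068, adjusted p = 2.22e-07). The protease inhibitor A2m differed by 2.62, Hopx by 2.29, Timp4 by 1.82 and the glutamate transporter Slc1a3 (GLAST) by 1.27. Timp4 lies within the gene Syn2, and since the strand of the reads is not given, reads of the pair cannot be told apart. Fabp7, a fatty acid-binding protein, did not pass, with 20.02, 19.7, 19.6 and 27.1 FPKM in the cerebellum, 43.6 ± 10.98 FPKM in the SN and a difference of -0.01 (SE 0.092, adjusted p = 0.904).

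Of 12 interneuron genes, 10 passed the FPKM filter. Of these, 7 were higher and none lower, beside 36.3% and 32.2% of all genes, with 3 not passing the test and a median of 2.13. Genes near 0 elsewhere pass that filter only through a high cerebellum level, which favours higher calls. Eomes (Tbr2), the marker of unipolar brush cells, was at 8.93, 10.2, 7.39 and 8.24 FPKM, and its 12 other values did not exceed 0.361 FPKM, a difference of 3.13 (SE 0.092, adjusted p = 7.63e-07). Tfap2b, a factor of molecular layer interneurons, was at 11.5, 10.4, 9.71 and 10.2 FPKM against 0.0136 to 1.204 FPKM. Slc6a5 (GlyT2), the glycine transporter of Golgi cells, was at 7.47, 6.705, 7.89 and 6.29 FPKM and was listed at 0 in all 4 cortex libraries. The groups of libraries did not overlap for these 3 genes, nor for the receptor tyrosine kinase Kit (2.68) or Pax2 (2.13). Grm2, the Golgi cell glutamate receptor, passed by 0.47 (SE 0.13, adjusted p = 0.0129) but had 10.3 ± 2.57 FPKM in the cerebellum and 18.2 ± 1.97 in the cortex.

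Of 32 transcription factors of the hindbrain and isthmus, 19 passed the FPKM filter. Of these, 16 were higher and 2 lower, beside 36.3% and 32.2% of all genes, with a median of 2.13. A gene near 0 in the other regions passes a mean over all libraries only if its cerebellum level is high. The filter therefore favours higher calls, and the count does not describe the whole list. Lhx1 and Lhx5, LIM-homeodomain factors of Purkinje cells, had means of 24.4 ± 2.05 and 9.73 ± 0.61 FPKM in the cerebellum, 4.204 ± 0.878 and 5.92 ± 1.103 in the SN, and under 0.1 in the cortex and striatum. Barhl1 differed by 2.67 and Meis1 by 2.098. Both genes that were lower were genes of the SN libraries. Pax5, a midbrain-hindbrain boundary factor, was listed at 0 in all cortex and striatum libraries, at 9.17 ± 5.48 FPKM in the SN and at 0, 0, 0.605 and 0.168 FPKM in the cerebellum, a difference of -0.84 (SE 0.17, adjusted p = 0.00331). Gbx2 was at 0.0318 ± 0.0217 FPKM in the cerebellum and 5.002 ± 5.66 in the SN, where the SD exceeded the mean.

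Forebrain transcription factors were lower in 27 of 31 genes and higher in 2, beside 32.2% and 36.3% of all genes, with a median of -1.85. Against each of the 3 regions 10 passed downward, beside 14.9% of all genes. Many were low in the SN too, where the list median was -0.48 against -2.17 for the cortex and -2.41 for the striatum. Sp9, a zinc finger factor of striatal neurons, was at 0, 0.841, 0.132 and 0.0339 FPKM against 3.67 to 20.7 FPKM, a difference of -3.08 (SE 0.18, adjusted p = 1.27e-05) without overlap, or -3.33 without S2. Bcl11b (CTIP2), a regulator of corticospinal and striatal neurons, differed by -2.81 and Lhx2 by -2.67. The striatal mean of Bcl11b was 36.7 ± 1.52 FPKM, against 0.896 ± 0.761 in the cerebellum. Emx1, which patterns the cortex, was at 0.392, 7.08 and 35.3 FPKM (lowest, median, highest) outside the cerebellum, and its difference moved from -2.17 (SE 0.41, adjusted p = 0.0027) to -2.78 without S2. Over the whole list, 28 of 31 were lower and 2 higher without S2, with a median of -2.03.

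The 2 forebrain list members that were higher passed against each region without overlap. Ebf1, a factor of striatal development, was at 12.97, 10.8, 11.6 and 11.6 FPKM in the cerebellum and at 2.85 ± 0.456 FPKM in the striatum, a difference of 2.206 (SE 0.084, adjusted p = 1.95e-06). Neurod2, which cortical neurons and granule cells share, was at 68.1, 69.02, 62.9 and 67.3 FPKM and at 47.04 ± 5.36 FPKM in the cortex, a difference of 2.17 (SE 0.12, adjusted p = 9.1e-06).

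All 20 medium spiny neuron genes that were tested were lower, 12 of them against each region, with a median of -2.35. Over all genes 32.2% were lower, and 14.9% lower than each region. The medians against single regions were -4.45 for the striatum, -1.57 for the cortex and -0.78 for the SN. Drd2 and Drd1a, the dopamine receptors of the indirect and direct pathway, stood at 0.322, 0.395, 1.79 and 3.22 FPKM and at 0.0495, 0.482, 0.158 and 0.237 FPKM. Their striatal means were 99.1 ± 7.65 and 45.5 ± 7.12 FPKM, and the differences were -3.59 and -2.505. Drd2 was high in the SN as well, at 43.3 ± 10.8 FPKM. Adora2a (-2.61), Rgs9 (-3.01), Gng7 (-2.67), Pde1b (-2.63) and Pdyn (-3.05) belong to the same signalling pathway or are its peptides.

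The smallest differences of this list came from genes that the cerebellum also held. Ppp1r1b (DARPP-32), the phosphatase regulator downstream of dopamine, was at 188, 175, 159 and 171 FPKM in the cerebellum, 177 ± 41.8 FPKM in the cortex, 82.9 ± 17.8 in the SN and 1779 ± 136 in the striatum. Its difference of -0.76 (SE 0.046, adjusted p = 1.44e-05) came from the striatum, since it was near 0 against the cortex (adjusted p = 0.975) and 1.08 against the SN. Penk, the enkephalin precursor, was at 58.2, 53.8, 48.2 and 55.1 FPKM, higher than in the cortex (39.6 ± 13.7 FPKM) and the SN (21.8 ± 3.64) and far below the striatum (561 ± 59.7). It was called lower, with a difference of -0.53, and against the median of the 3 regions the sign turned, to 0.49.

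Neocortical excitatory neuron genes were lower in 20 of 23 and higher in 1, beside 32.2% and 36.3% of all genes. The median was -2.16, and 11 passed downward against each region, beside 14.9% of all genes. Without S2 the same counts held and the median was -2.25. Nrgn, neurogranin, a calmodulin-binding protein of cortical and striatal dendrites, was at 10.2, 185, 49.2 and 67.6 FPKM in the cerebellum and at 1661 ± 161 FPKM in the cortex, 1108 ± 185 in the striatum and 197 ± 103 in the SN. The difference was -3.73 (SE 0.46, adjusted p = 0.000334), or -4.25 without S2. Camk2a, the α subunit of the calcium/calmodulin kinase, was at 26.1, 153, 32.4 and 38.6 FPKM, highest in S2, and at 958 ± 75.99 FPKM in the cortex, a difference of -2.75, or -3.27 without S2. Lamp5 (-3.12), Ngef (-3.02), the zinc transporter Slc30a3 (-2.79), Mpped1 (-2.72) and Tbr1 (-2.29) were lower too. Without S2, Slc30a3 differed by -3.37, Mpped1 by -3.21 and Tbr1 by -2.71. Neurod6 (-1.26) was lower than the mean of the 3 regions but not than the SN, which held 2.89 ± 2.28 FPKM against 2.87 ± 2.41 in the cerebellum. Nrn1, neuritin, was the gene that was higher, by 0.20 (SE 0.065, adjusted p = 0.0311), at 57.3 ± 2.93 FPKM against 113 ± 4.44 in the cortex. That call was lost in limma without S1 (adjusted p = 0.0768), without S4 (adjusted p = 0.102) and against the cortex and striatum alone (adjusted p = 0.568).

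The dopaminergic and serotonergic list differed from the mean of 3 regions mainly through 1 of them. It had 13 of 15 genes lower and 2 higher, beside 32.2% and 36.3% of all genes. Only 1 was lower than each region, beside 14.9% of all genes. The median difference of -1.19 was -4.32 against the SN, -0.05 against the striatum and 0.00 against the cortex. Against the cortex and striatum alone, 4 were lower and 3 higher. Slc6a3, the dopamine transporter, was at 219.5 ± 68.6 FPKM in the SN, at 0.135 FPKM in the cerebellum of S3 and listed at 0 in the other 3 cerebella. Its difference was -2.59 (SE 0.094, adjusted p = 1.58e-06), or -0.05 without the SN. Ddc, the decarboxylase of dopamine synthesis, was at 2.497, 2.72, 2.68 and 3.18 FPKM and was the gene lower than each region, with 3.65 ± 0.35 FPKM in the cortex, 6.25 ± 0.84 in the striatum and 187 ± 55.96 in the SN. Th, tyrosine hydroxylase, was at 5.89, 4.88, 7.64 and 5.54 FPKM in the cerebellum, above the cortex (1.04 ± 0.241 FPKM) and the striatum (2.98 ± 0.115) and far below the SN (209 ± 65.7). The call was -0.77 (SE 0.14, adjusted p = 0.00234) against the 3 regions and 1.28 against the cortex and striatum. Ret, a receptor of GDNF family ligands, and Aldh1a1, a retinaldehyde dehydrogenase, were higher by 0.64 and 0.50 yet lower than the SN, with differences of -2.48 and -1.92 on the log2 scale.

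GABA-A receptor subunits were called in both directions. Of 13 tested, 5 were higher, 7 lower and 1 did not pass, with a median of -0.27. Over all genes 36.3% were higher and 32.2% lower. Receptors of this family are chloride channels, and δ together with α6 forms the receptor outside the synapse of granule cells. Gabra6 and Gabrd were higher than each region without overlap. Gabrd was at 95.99, 82.4, 77.2 and 80.1 FPKM in the cerebellum, while the striatum held 57.7 ± 5.22 FPKM, the cortex 39.5 ± 1.19 and the SN 4.63 ± 3.17, which gave a difference of 1.92 (SE 0.17, adjusted p = 7.59e-05). The synaptic subunit Gabrb2 (0.54) was higher than the mean but not than the SN, which had 50.4 ± 8.49 FPKM against 53.7 ± 4.87 in the cerebellum.

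Several α subunits were lower. Gabra5 was at 0.205, 3.44, 2.43 and 2.48 FPKM and at 6.54 to 17.6 FPKM elsewhere, a difference of -2.06 (SE 0.26, adjusted p = 0.000346). Gabra3 was at 3.82, 7.72, 5.92 and 5.505 FPKM against 12.6 to 30.1 FPKM and differed by -1.74 (SE 0.12, adjusted p = 2.49e-05). Both groups were free of overlap, as were those of Gabra2 (-0.69) and Gabrg3 (-1.54). Gabra4 (-1.27) was lower than the mean but not than each region, and the SN came closest, with 8.62 ± 2.18 FPKM against 6.58 ± 0.954 in the cerebellum.

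Ionotropic glutamate receptors were higher in 7 of 18 genes and lower in 5, beside 36.3% and 32.2% of all genes. Grin2c, the NMDA receptor subunit of mature granule cells, was at 119, 119.5, 129.9 and 112 FPKM and at 17.8 to 22.8 FPKM elsewhere, an even level in the 3 other regions, and differed by 2.51 (SE 0.045, adjusted p = 2.22e-07). Grin2b, its forebrain counterpart, was at 1.05, 3.03, 1.63 and 1.25 FPKM and at 9.53 ± 1.398 FPKM in the cortex and 12.4 ± 3.27 in the striatum, a difference of -1.72 (SE 0.19, adjusted p = 0.000193). These paralogues were called in opposite directions. How often paralogues differ in direction over all genes was not counted, here or for the pairs below. Grid1, a δ receptor that binds cerebellins, was at 8.33 ± 0.872 FPKM and differed by -0.94 (SE 0.064, adjusted p = 2.29e-05). The AMPA receptor subunit Gria4 (1.91) and the kainate receptor subunit Grik1 (0.79) were higher than each region. Gria1 (0.51) passed against each region although its lowest cerebellum value, 75.8 FPKM, lay below the highest of the others, 76.7. Grik5 differed by -1.06.

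Among metabotropic glutamate receptors 3 of 7 were higher and 4 lower, beside 36.3% and 32.2% of all genes. Grm4, the autoreceptor of parallel fibre endings, was at 139, 149, 137 and 139 FPKM and at 7.33 to 28.2 FPKM elsewhere, a difference of 3.35 (SE 0.054, adjusted p = 2.22e-07). Grm5, which couples to phospholipase C, was at 1.12, 4.32, 3.55 and 2.93 FPKM in the cerebellum and at 9.53 to 37.6 FPKM elsewhere, without overlap, and differed by -2.45 (SE 0.19, adjusted p = 4.32e-05). Grm3 (-1.02) and Grm7 (-0.75) were also lower than each region, and Grm8 was lower, with a difference of -0.23 (SE 0.087, adjusted p = 0.0453) and overlapping values, a call that was lost without S1, S2 or S3.

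**Figure D3:**
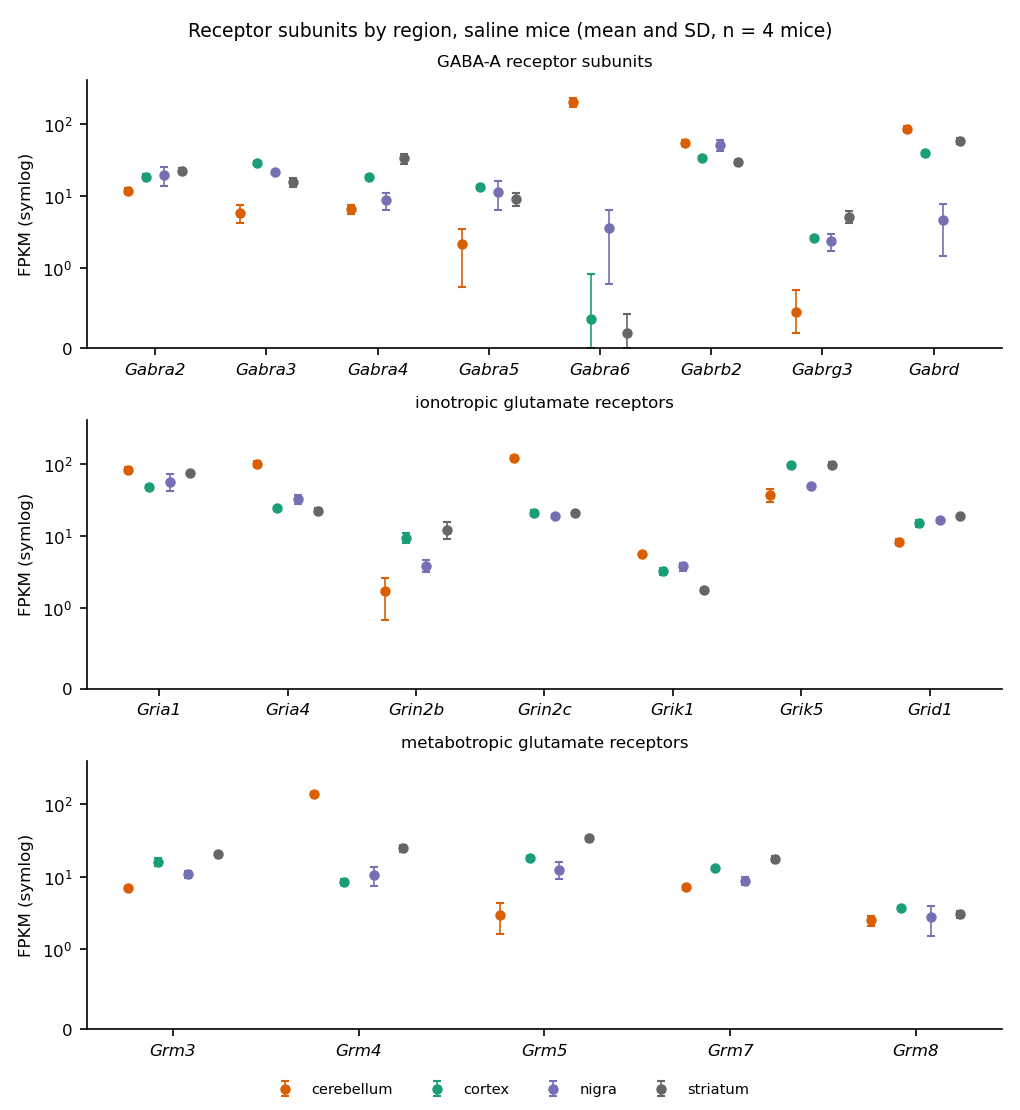
Mean FPKM with SD over 4 saline mice in each region, on a symlog axis that is linear below 1 FPKM, for subunits of the GABA-A receptor and for ionotropic and metabotropic glutamate receptors. The cerebellum (orange) lies above the other regions for Gabra6, Grin2c, Gria4 and Grm4 and below them for Gabra5, Gabrg3, Grin2b and Grm5.

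Genes of calcium stores and buffers were higher in 21 of 31 and lower in 8, with a median of 0.99. Over all genes 36.3% were higher and 32.2% lower. The largest difference of the list, 5.75, was that of Car8, which is also in the Purkinje cell list, so the counts of these lists are not independent. These proteins carry the calcium signal that follows glutamate at the Purkinje cell synapse. Atp2a3, the calcium pump SERCA3, was at 94.3, 74.8, 74.7 and 82.6 FPKM and at 2.08 to 9.55 FPKM elsewhere, a difference of 4.06 (SE 0.073, adjusted p = 2.22e-07). Plcb4, the main phospholipase Cβ of Purkinje cells, differed by 2.17 (SE 0.075, adjusted p = 1.29e-06), with 65.97 ± 8.26 FPKM in the cerebellum, and its paralogue Plcb1 by -1.17 (SE 0.043, adjusted p = 1.59e-06), with 10.5 ± 0.635. Both were free of overlap, in opposite directions. Prkca, a protein kinase C, was lower than each region, with a difference of -0.75. The calcium store protein Casq2 (2.27), the receptor Itpr3 (2.09) and the kinase Camk4 (2.03) were higher than each region.

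Of 38 voltage-gated potassium channel genes, 14 were higher and 21 lower, with a median of -0.35, beside 36.3% higher and 32.2% lower over all genes. The fast Kv3 channels split. Kcnc1 was at 282, 294, 276 and 289 FPKM against 53.5 to 175 FPKM and differed by 1.72 (SE 0.063, adjusted p = 1.59e-06). Its relative Kcnc2 was the opposite, at 0.918, 3.89, 4.58 and 4.13 FPKM against 8.44 to 26.4 FPKM, a difference of -2.16 (SE 0.26, adjusted p = 0.000301). Neither gene overlapped between the cerebellum and the others. Kcnd2, a subunit of the A-type current, was higher by 1.38. Among those lower, Kcnip2, an auxiliary subunit of the same current, led with -3.52, followed by Kcnf1 (-2.77), Kcnh3 (-2.73), Kcnv1 (-2.604), Kcnq5 (-2.43) and Kcng1 (-2.36). Without S2, Kcnf1 differed by -3.21, Kcnh3 by -3.16 and Kcnv1 by -2.85. Without S2 the count was 14 higher and 21 lower, with a median of -0.41.

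Sodium, calcium and HCN channel genes were called in both directions, 16 of 33 higher and 14 lower, with a median of 0.04. The shares over all genes were 36.3% and 32.2%. Cacna1a, the P/Q-type channel of Purkinje and granule cells, was at 103, 97.8, 101 and 101 FPKM in the cerebellum and at 22.1 to 43.2 FPKM elsewhere, a difference of 1.68 (SE 0.050, adjusted p = 7.9e-07). Of the T-type channels, Cacna1g was higher, at 54.98 to 60.9 against 11.3 to 31.3 FPKM (1.59), and Cacna1h lower, at 0.625 to 3.49 against 12.6 to 30.3 FPKM (-2.72). A similar pair was formed by the sodium channel partners Fgf14, higher by 1.03, and Fgf13, lower, with a difference of -2.24. Cacnb4 (1.14) was higher than each region, and Scn3b (-2.98) and Scn3a (-1.94) lower than each.

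The cerebellins and their partners were called in both directions, 6 of 16 higher and 8 lower, beside 36.3% and 32.2% of all genes. While Cbln1 and Cbln3 were among the 12 largest upward differences, Cbln2 was at 0.198, 1.13, 2.56 and 2.55 FPKM and Cbln4 at 0.248, 2.798, 1.43 and 1.08 FPKM, with differences of -1.798 and -1.32. Their levels were highest in the SN, at 13.6 ± 8.099 and 8.72 ± 2.23 FPKM. C1ql1, a related ligand that climbing fibres release onto the receptor Bai3, was at 2.34, 3.23, 4.05 and 3.22 FPKM against 4.89 to 23.98 FPKM (-1.34). Bai3 itself was higher by 0.49 (SE 0.061, adjusted p = 0.000365).

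Genes of synaptic vesicle release had no common direction, with 20 of 45 higher, 19 lower and a median of -0.01. The shares over all genes were 36.3% and 32.2%. Some paralogues were called in opposite directions. Syt2, the fast calcium sensor of hindbrain synapses, was at 83.04, 69.004, 86.9 and 79.9 FPKM against 8.11 to 50.3 FPKM and differed by 2.23 (SE 0.041, adjusted p = 2.23e-07), while Syt1 was at 90.4, 114, 87.8 and 90.4 FPKM against 134 to 284 FPKM and differed by -1.02 (SE 0.065, adjusted p = 1.73e-05). Neither overlapped. Stx1a, a membrane SNARE, was at 1.07, 33.2, 4.22 and 3.85 FPKM, with S2 above the SN mean of 23.1 ± 5.13 FPKM, and at 235 ± 14.98 FPKM in the cortex, a difference of -3.402 (SE 0.50, adjusted p = 0.000772), or -4.09 without S2. Cadps2, which primes dense core vesicles of granule cells, was higher by 1.84, as were Syt9 (1.52) and Syt12 (1.43). Syt17 was lower, with a difference of -1.91.

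Neuropeptide genes were lower in 22 of 25 and higher in 1, beside 32.2% and 36.3% of all genes, with a median of -1.31. Beside Tac1, Sst and Pdyn, Cartpt was at 0, 1.204, 0.434 and 0.424 FPKM against 5.39 to 20.5 FPKM and differed by -2.64 (SE 0.19, adjusted p = 2.76e-05). Vgf, a precursor of secreted peptides, was at 19.96, 80.4, 36.2 and 38.4 FPKM against 159 to 327 FPKM and differed by -2.58 (SE 0.27, adjusted p = 0.000155), or by -2.87 without S2. Both were free of overlap. Chgb, a granin of dense core vesicles, was the one that was higher, at 260.4, 247, 227 and 221 FPKM against 86.1 to 171 FPKM, a difference of 1.003 (SE 0.051, adjusted p = 6.85e-06). Among 15 tested transporter genes 6 were higher and 7 lower, beside 36.3% and 32.2% of all genes.

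Immediate early genes, which neurons induce upon activity, were lower in 13 of 20 and higher in 2, beside 32.2% and 36.3% of all genes. Their median was -0.79, but only 1 was lower than each region, beside 14.9% of all genes. The median was -1.63 against the cortex, -1.35 against the striatum and 0.14 against the SN. Junb was the gene lower than each region, at 9.01, 19.8, 8.43 and 7.89 FPKM and at 72.1 ± 4.899 FPKM in the cortex and 17.4 ± 4.35 in the SN. Arc, which regulates AMPA receptors at synapses, was at 5.67, 16.4, 7.89 and 9.73 FPKM, with 3 of the 4 values near the SN mean (7.85 ± 1.35 FPKM) and all 4 below the cortex (128 ± 18.4) and striatum (55.6 ± 18.6). Egr3 (-2.98, or -3.55 without S2), Nptx2 (-2.22) and Egr1 (-1.47) were likewise lower than the cortex and striatum, with the SN close by. Ier2 was higher by 0.50 (SE 0.12, adjusted p = 0.00678), at 8.65 ± 1.54 FPKM against 9.06 ± 2.17 in the cortex.

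**Figure D4:**
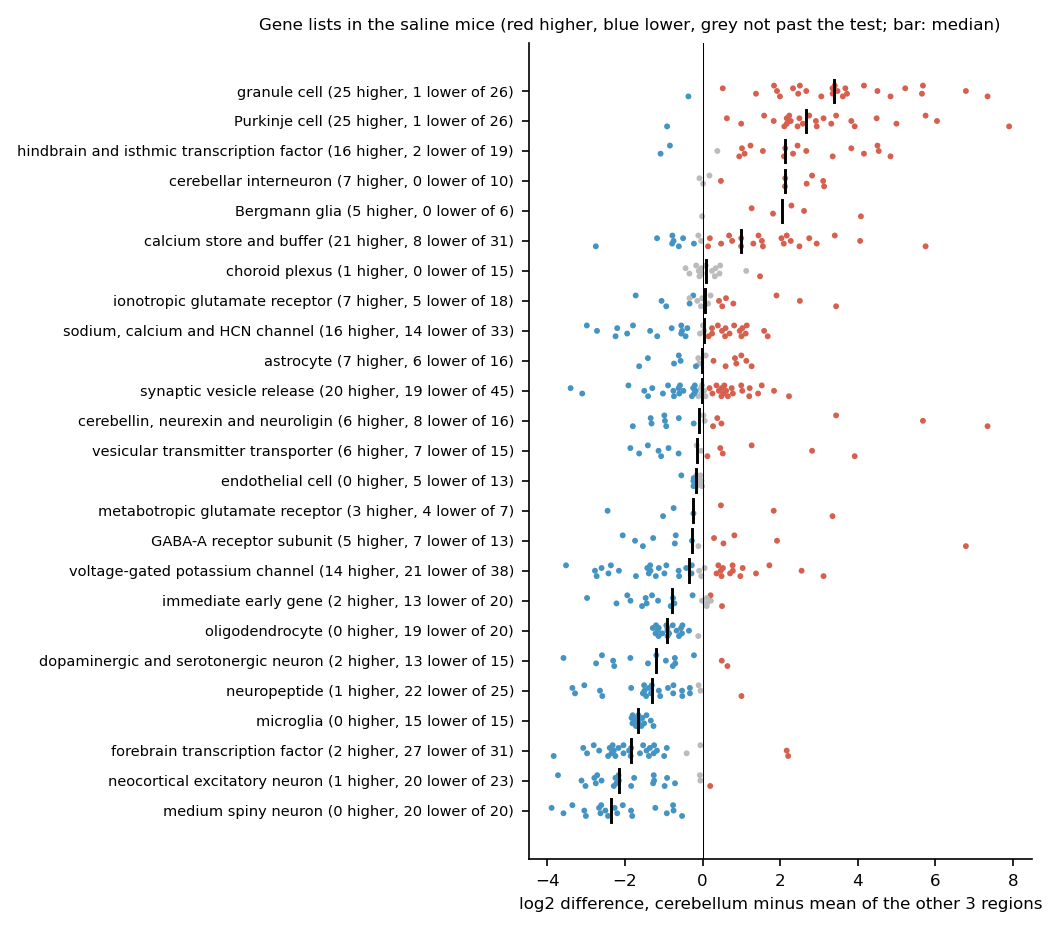
Log2 difference of the saline cerebellum from the mean of the 3 other regions for every tested gene of the 25 lists (red higher, blue lower, grey not past an adjusted p of 0.05), with a bar at each list's median. The lists run from granule cell genes at a median of 3.38 to medium spiny neuron genes at -2.35, and the 15 microglia genes form 1 narrow group below 0.

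All 15 microglia genes were lower than each of the 3 regions, beside 14.9% of all genes. In all 15 the 4 cerebellum libraries lay below the 12 others, a pattern found in 12.1% of all genes. Microglia are the resident immune cells of the brain. The differences were close together, from -1.83 to -1.26 with a median of -1.65, and the summed level of the 15 genes was 117 to 158 FPKM in the cerebellum and 328 to 650 FPKM in the 12 other libraries. C1qc, a chain of complement C1q, was at 14.3, 19.6, 13.96 and 18.9 FPKM against 45.95 to 99.5 FPKM and differed by -1.83 (SE 0.096, adjusted p = 7.68e-06). Tmem119, a marker of resident microglia, was at 3.71, 5.75, 4.18 and 3.896 FPKM against 13.6 to 24.7 FPKM, a difference of -1.81 (SE 0.093, adjusted p = 7.17e-06). Csf1r, the receptor that keeps microglia alive, was at 5.94, 9.699, 6.88 and 5.99 FPKM against 21.3 to 34.2 FPKM. The fractalkine receptor Cx3cr1 and the purine receptor P2ry12 stood at 3.302 to 5.15 and 2.76 to 3.53 FPKM in the cerebellum and at 12.8 to 18.6 and 8.77 to 16.1 FPKM outside it. The smallest difference was that of P2ry13 at -1.26. Both P2ry12 and P2ry13 overlap the expressed gene Med12l, and their values may include its reads. Mean levels over the saline libraries were 9.79, 3.35 and 6.79 FPKM for P2ry12, P2ry13 and Med12l. All 15 were also lower without S2, with a median of -1.68, and against the cortex and striatum alone, with a median of -1.49.

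Oligodendrocyte genes were lower in 19 of 20 and higher in none, beside 32.2% and 36.3% of all genes, with a median of -0.90. Against each region 7 passed, beside 14.9% of all genes. The median against the cortex was 0.00 and against the SN -1.53. Mbp, the main protein of compact myelin, had means of 1091 ± 74.7 FPKM in the cerebellum, 1187 ± 116 in the cortex, 2235 ± 128 in the striatum and 3221 ± 384 in the SN. The cerebellum did not differ from the cortex past the threshold (adjusted p = 0.299). For Mog as well the SN came first, then the striatum, and the cerebellum and cortex had nearly the same mean. Olig1 was at 28.6, 35.4, 34.95 and 33.8 FPKM against 50.1 to 148 FPKM and differed by -1.28 (SE 0.073, adjusted p = 1.07e-05). The lineage factor Sox10, the precursor receptor Pdgfra and the myelin gene Mal differed by -1.16, -1.20 and -1.21, and like Olig1 they were lower than each region without overlap.

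Of 16 astrocyte genes, 7 were higher and 6 lower, with a median of 0.00, counts near the 36.3% and 32.2% of all genes. S100b, a calcium-binding protein, was at 187, 153, 159.6 and 175 FPKM against 52.8 to 137 FPKM and differed by 1.13 (SE 0.059, adjusted p = 7.84e-06). Aldoc (zebrin II), which marks stripes of Purkinje cells as well as astrocytes, was at 1100.5, 1028, 933 and 1018 FPKM against 403 to 917 FPKM, a difference of 0.84 (SE 0.053, adjusted p = 1.66e-05). The glutamate transporters were opposite: Slc1a3 was at 303, 278, 239 and 269 FPKM against 70.3 to 158 FPKM, and Slc1a2 (GLT-1) at 63.02, 98.8, 68.8 and 64.7 FPKM against 123 to 296 FPKM, with differences of 1.27 (SE 0.052, adjusted p = 2.74e-06) and -1.41 (SE 0.095, adjusted p = 2.22e-05). Neither gene overlapped. Glul, glutamine synthetase, was lower, with a difference of -0.74. Gfap (67.1 ± 4.79 FPKM), Aqp4 (60.98 ± 6.48) and the GABA transporter Slc6a11 (34.9 ± 18.2) were each highest in the SN, at 301 ± 59.5, 76.6 ± 9.06 and 328 ± 54.9 FPKM. Gfap was called lower, with a difference of -0.57, and against the cortex and striatum alone the difference was 0.22.

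Endothelial genes moved little. Of 13, 5 were lower and none higher, none passed against each region, and the median was -0.16, where 32.2% of all genes were lower. The lower count was 2 without S1 or without S4 and 3 without S3. Slco1c1, a thyroid hormone transporter of the blood-brain barrier, differed by -0.55 (SE 0.057, adjusted p = 0.000147), and Cldn5 and Pecam1 by -0.23 and -0.24. Choroid plexus genes passed in 1 of 15, beside 68.5% of all genes, and none was lower, but the counts turned on single mice. Without S4, 6 were higher, with a median of 0.42, and without S1, 1 was higher and 2 lower, with a median of -0.13. The gene that passed with all 4 mice was Otx2, which unipolar brush cells and granule cells also use, at 5.54, 4.22, 7.49 and 7.04 FPKM and 1.48 (SE 0.094, adjusted p = 1.72e-05). Ttr, transthyretin, varied widely between mice, at 579, 36.4, 567 and 165 FPKM in the cerebellum, and at 1554 and 2434 FPKM in the striatum of S3 and S4 against 49.7 and 107 in that of S1 and S2. Its difference was 1.13 (SE 0.71, adjusted p = 0.195).

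The contrast was repeated in the 8 mice of the other 2 groups, which did not enter the saline values. In the MPTP mice 5201 genes were higher (38.8%) and 4292 lower (32%), and in the MPTP + EX mice 4294 (32%) and 3449 (25.7%). Without mouse E29 the MPTP + EX counts rose to 4874 and 4241, and without any other mouse of that group both fell. The shares below were not computed without E29, and the part of single libraries in them was not tested. Of the 4870 genes higher in the saline cerebellum, 99.5% had the same sign in the MPTP mice and 92.2% were called there too, and in the MPTP + EX mice 99.1% and 81.6%. Of the 4327 that were lower, 98.7% had the same sign and 89.0% were called in the MPTP mice, and 98.0% and 75.8% in the MPTP + EX mice. The leading genes had similar differences, such as Pcp2 with 7.03 in MPTP and 7.37 in MPTP + EX, Zic1 with 4.75 and 4.98, Grin2c with 2.33 and 2.61, and Ctxn1 with -4.66 and -5.19. Cerebellar markers were also present in the SN libraries of these mice. Pcp2 was there at 80.6 ± 96.6 FPKM in MPTP and 28.8 ± 19.2 in MPTP + EX mice, against 21.3 ± 14.4 in saline mice. The part of these markers in the contrast was not tested. Microglia genes had medians of -1.69 and -1.68, and forebrain transcription factors of -1.79 and -1.92.

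**Figure D5:**
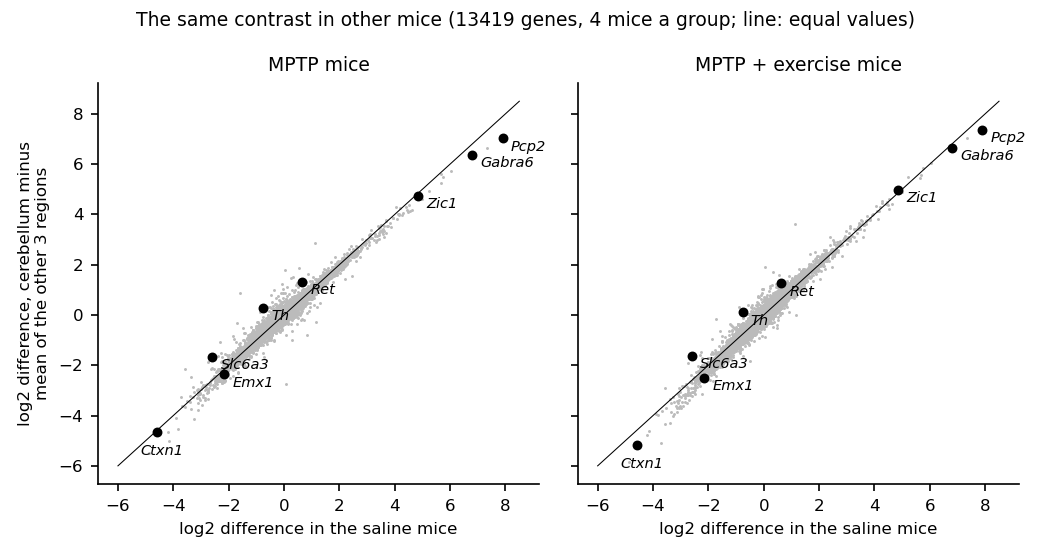
Log2 difference of the cerebellum from the mean of the 3 other regions in the MPTP mice (left) and the MPTP + exercise mice (right) against that in the saline mice, for 13419 genes with 4 mice a group. The line marks equal values. Most genes lie along it, and Slc6a3, Th and Ret lie above it in both panels.

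A test of the difference between groups, fitted over all 12 mice, called 1 gene between MPTP and saline (0.00745%) and 0 in the other direction. At an unadjusted p under 0.05 it held 446 genes (3.32%). Between MPTP + EX and MPTP limma called 0 genes in either direction, with 963 (7.18%) at an unadjusted p under 0.05. The gene called was Slc6a3, whose contrast was -2.59 in saline, -1.67 in MPTP and -1.62 in MPTP + EX mice. The contrast was 0.93 higher in MPTP than in saline (SE 0.12, adjusted p = 0.0443). The value that moved was that of the SN, at 219.5 ± 68.6 FPKM in saline, 28.9 ± 3.81 in MPTP and 27.97 ± 8.36 in MPTP + EX mice, while the cerebellum means were 0.0337 ± 0.0673, 0.00711 ± 0.0142 and 0.0161 ± 0.021 FPKM. The call was lost at a pseudocount of 0.1 and when any of 10 of the 12 mice was left out, and it was kept without S3 (adjusted p = 0.0169) or E29 (0.0292). Th had SN means of 209 ± 65.7, 35.2 ± 4.05 and 33.04 ± 11.7 FPKM in the 3 groups and contrasts of -0.77, 0.29 and 0.11.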

How the data were processed

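RNA-seq of the cerebellum, cortex, SN and striatum came from 12 mice, which gave 48 libraries. A single table was deposited by the authors, with FPKM values of 23366 gene names that they had made from the reads. The deposited notes name HISAT2 (version 2.1), HTSeq (version 0.11) and the mouse build mm9, while the study's methods name Tophat2, Cufflinks and RSEM, and the sources used here do not say which of them made the FPKM. The 27 names turned into dates by a spreadsheet were left out (at most 0.329% of a column sum). Column sums were 344861 to 399147 in the 16 saline libraries, 12809 to 13566 genes were above 1 FPKM, and the median correlation of a library with others of its region was 0.978 to 0.991. Over all 48 libraries the ranges were wider, with column sums of 343661 to 619797 and 11595 to 13593 genes above 1 FPKM. Read counts are unknown. From the steps between FPKM values, depth differed by up to 1.41-fold between saline libraries and 1.30-fold between cerebella, and precision comes from the spread between 4 mice.

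Columns that begin alike (S1, for example) were taken as the 4 regions of 1 mouse, a link that the sample labels do not give. Deviations from the region mean correlated by -0.20 to 0.28 between libraries of 1 mouse (median 0.085, 24 pairs) and by -0.39 to 0.31 between mice (median -0.044, 72 pairs). Per-mouse differences of log2(FPKM + 1) were tested with limma (version 3.58.1, intensity trend, two-sided, 3 residual degrees of freedom before moderation) in R (version 4.3.3), with Benjamini-Hochberg adjustment over the 13419 genes with a mean FPKM above 1. Tests for counts were not used. Tested on simulated data of the main saline contrast over 13419 genes, the fit recovered 4% of shifts of 0.25 and 52% of 0.5. It recovered 94% of shifts of 1 and 100% of 2, and called 6 unchanged genes. With this adjustment, such values depend on the share of genes shifted. Recovery and false calls at the share called in the saline mice, 68.5%, were not tested. Python 3.11.15 with matplotlib 3.10.9 was used for plotting.

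The 25 gene lists (495 genes, 493 in the table, 460 past the filter) and the comparison were chosen with earlier results of these data known. Genes were named by rule. They are the 12 largest differences in each direction among genes past all 3 regional tests without overlap, up to 8 past the test per list, up to 3 past it in the opposite direction, up to 3 that did not pass, and pairs of paralogues. Some genes that the rule names are not reported here. Of the 180 that are, 19 overlap another expressed gene in RefSeq, the strand of the reads is not given, and their values may include its reads. Alternatives changed the pseudocount, filter, scaling, trend, mouse term, summary of the other regions and mice. The comparison with the cortex and striatum alone, and the list counts under each alternative, were added after seeing the data.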

Additional observations from a re-analysis of the deposited data

Results flagged for a closer look

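In 27 of the 180 named genes (15%) 1 of the 4 cerebellum libraries stood apart from the other 3 by Dixon's criterion for 4 values. For independent normal values chance meets it in about 1 group in 20. FPKM near 0 are not normal, and genes of the same library are not independent. The share over all tested genes was not computed, so whether 15% is unusual is unknown. Mouse S2 was the highest in 19 of them, in FPKM, with Camk2a at 153, Cpne7 at 13.3, Ctxn1 at 76.4, Egr3 at 11.7, Emx1 at 5.65, Grm2 at 14.1, Grm4 at 149.4, Junb at 19.8, Kcnf1 at 6.198, Kcnh3 at 11.995, Kcnv1 at 1.58, Mpped1 at 18.8, Neurod6 at 6.48, Slc1a2 at 98.8, Slc30a3 at 14.5, Sp9 at 0.841, Stx1a at 33.2, Syt1 at 114 and Tbr1 at 5.24. It was the lowest in Aqp4 at 51.3 and Neurod1 at 112.5. Of the 19 genes, Grm2 and Grm4 were the ones called higher in the cerebellum, and the other 17 were called lower. The other libraries that stood apart were S1, lowest in Pde1b at 9.91, S3, lowest in Gdf10 at 66.8 and Nrn1 at 52.99 and highest in Slc18a2 at 1.94 and Slc6a3 at 0.135, and S4, highest in Fabp7 at 27.1. In the same library of S2 the summed neocortical markers were 656 FPKM against 209 to 292 in the other cerebella, and their part in these values was not tested.

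The contrast of Slc6a3 differed between groups of mice, by 0.93 on the log2 scale for MPTP minus saline (adjusted p = 0.0443 in limma over 12 mice).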

How the results depend on the processing

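Under every alternative run the counts of genes higher and lower than the mean of the other regions stayed within 1.5 times the values reported for saline, MPTP and MPTP + EX mice. Without the replicate block, that is with the 16 libraries fitted by region and not by mouse, 4965 genes were higher and 4320 lower, against 4870 and 4327, and with mouse as an additive term 4983 and 4333. Scaling to a common median gave 4088 and 5113, so that more genes were lower than higher. The same held with no FPKM filter, at 5108 and 5303 of 19747 genes. Leaving out 1 saline mouse gave 4262 to 4615 and 3920 to 4030. In the MPTP + EX mice leaving out 1 mouse gave 3235 to 4874 higher and 2695 to 4241 lower. The single call between MPTP and saline mice, Slc6a3, became 0 genes at a pseudocount of 0.1 and ranged from 0 to 1 when 1 mouse was left out, and the cause was not tested. Of the 180 named genes, 170 to 180 kept direction and side of the threshold under each alternative. Against the median of the other regions the sign turned for Fabp7 (0.34), Pax5 (0.23), Penk (0.49), Th (0.80) and Gfap (0.065), and against the cortex and striatum alone, chosen after seeing the data, for Slc17a7 (-0.43), Fabp7 (0.46), Pax5 (0.23), Th (1.28) and Gfap (0.22), and the cause was not tested. Fabp7, which did not pass, ranged from -0.097 to 0.090 when 1 mouse was left out, with 0.090 without S1 and 0.016 without S2. The call of Nrn1 was also lost with no filter, a common median, no trend and both other fits of the mouse term. FPKM give no counting error, so the limit that depth sets is unknown.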
